A study of Sus scrofa with 8 samples.

Results

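Fast skeletal muscle fibres are built with their own versions of the sarcomere proteins. 8 genes of this kind were considered: the troponin genes TNNC2, TNNT3 and TNNI2, the myosin light chain genes MYL1 and MYLPF, and the myosin heavy chain genes MYH1, MYH2 and MYH4. They were chosen by name, as genes whose probe sets carry exactly 1 gene symbol in GEO's annotation of the porcine array. 6 of the 8 had such a probe set, 1 each, out of 6765 genes named this way on the array. MYH1 and MYH4, the heavy chains of the fast IIx and IIb fibres, had none and were not analysed here.

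Muscle was taken from 4 Korean native pigs aged 7 months and 4 Yorkshire pigs aged 6 months, housed alike according to the labels. The tissue was the longissimus dorsi, the long back muscle, at the level of the ribs. RNA from each of the 8 animals, labelled as biological replicates, was read on its own one-colour Affymetrix array. Age differs with breed, so the effects of breed and age cannot be told apart. The series compares muscle gene expression between the breeds.

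In a sarcomere, myosin heavy chains form the thick filament and carry the motor, and light chains stabilise and tune its lever arm. Troponin sits on the thin filament, where its C subunit binds calcium, its I subunit holds the actin-myosin interaction off at rest, and its T subunit anchors the complex to tropomyosin. Each fibre expresses mainly 1 fast or slow heavy chain together with matching light chains and troponins, and pig longissimus is known as a predominantly fast, glycolytic muscle. In a piece of whole muscle, fewer cells of a type and less RNA per cell cannot be told apart.

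The deposited signals were on a linear scale, with array medians of 135.8 to 185.3. The 23 negative control probe sets had a 95th percentile of 91.5. Hybridisation control transcripts, which are added to every sample, gave brighter signals on replicates 1 and 3 in each breed than on replicates 2 and 4. The log2 ratio of 3' to 5' signal in housekeeping transcripts was 3.37 for Korean native pig 1 and 3.07 for Yorkshire 3, against 0.88 to 1.74 for the other 6 animals. All 6 slow fibre markers were detected at high signal, beside the fast genes. The summed signal of the 3 heart markers with a probe set was 184 to 397 in Korean native pigs, against 336 to 659 in Yorkshire pigs.

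All 6 fast fibre genes gave signals near the top of the array. By mean signal they ranked 4th (MYL1), 6th (MYLPF), 14th (TNNC2), 24th (TNNT3), 31st (TNNI2) and 34th (MYH2) among 23999 probe sets that are not controls. These ranks describe probe sets and not transcript numbers, since probe sets bind with different strength. Within single arrays the rank of MYL1 ranged from 2 to 11 and that of MYLPF from 1 to 11. MYH2 ranged from 2 to 270, the widest range of the 6.

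MYL1, the fast essential light chain, had signals of 92330, 70228, 99851 and 58650 in Korean native pigs 1 to 4, against 85964, 79847, 115636 and 120839 in Yorkshire pigs 1 to 4. MYLPF, the fast regulatory light chain, had 93473, 68798, 97938 and 57628 in Korean native pigs, against 87061, 78776, 102741 and 124382 in Yorkshire pigs. Both genes ordered the 8 animals identically, with Korean native pig 4 lowest and Yorkshire 4 highest, and in both the breeds overlapped. The highest signal was 2.06 times the lowest for MYL1 and 2.16 times for MYLPF.

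TNNC2, the fast troponin C that binds calcium, had signals of 72505, 57528, 80608 and 49503 in Korean native pigs, against 64978, 67188, 96271 and 127816 in Yorkshire pigs. Its order over the animals was nearly that of the light chains, and the breeds overlapped again. TNNT3, the tropomyosin-binding subunit, had 77093, 63882, 53366 and 53016 in Korean native pigs, against 69377, 70564, 61348 and 108107 in Yorkshire pigs. Here Korean native pig 3, among the brighter animals for the light chains, was close to the lowest. TNNI2, the inhibitory subunit, had 73055, 53555, 54297 and 52501 in Korean native pigs, against 64264, 59877, 62731 and 95944 in Yorkshire pigs. In TNNI2 1 animal of each breed, Korean native pig 1 and Yorkshire 4, stood above the other 3, and the breeds overlapped.

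MYH2, the heavy chain of fast oxidative IIa fibres, had signals of 73339, 71733, 14914 and 52310 in Korean native pigs, against 71197, 82600, 29581 and 112891 in Yorkshire pigs. The low animals were replicate 3 of each breed, and the highest MYH2 signal was 7.57 times the lowest. The within-breed standard deviation on the log2(signal + 32) scale was 0.96 for MYH2, above that of 96.5% of the 14399 probe sets tested. It was 0.40 for TNNC2, 0.33 for MYL1 and for MYLPF, 0.31 for TNNT3 and 0.27 for TNNI2, against a median of 0.39 over all tested probe sets. The MYH2 spread exceeded that of each of the 100 brightest other probe sets, whose median was 0.28. In the Sscrofa11.1 gene table MYH2, MYH1 and MYH4 are neighbours with 0 protein-coding genes between adjacent members. Probe sequences were not used here, so how far the MYH2 probe set also binds transcripts of these near-identical relatives was not tested.

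**Figure D1:**
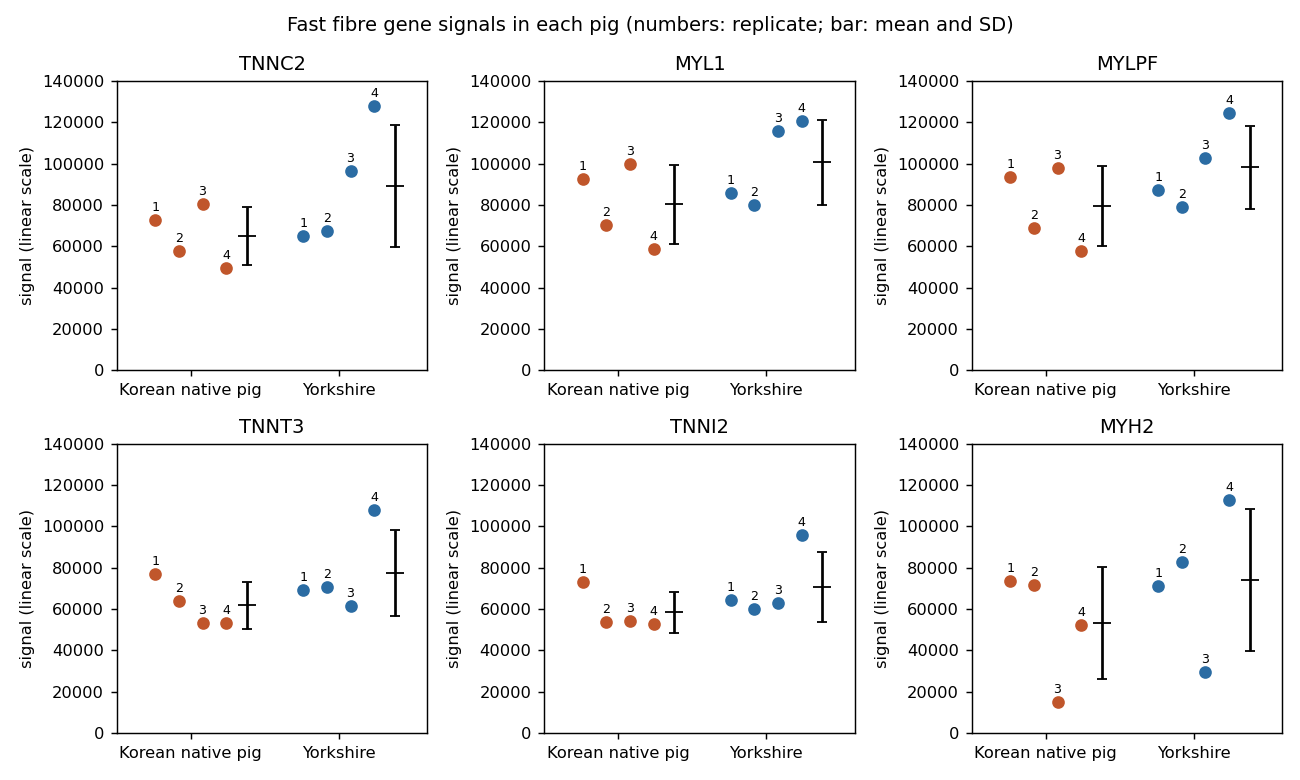
Signal (linear scale) of the 6 fast fibre genes in each animal, Korean native pigs left and Yorkshire pigs right, with the replicate number above each point and the breed mean and SD (n = 4) beside the points. Yorkshire 4 is the highest of the 8 animals in every panel, and MYH2 is low in replicate 3 of both breeds, at 14914 and 29581.

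The breed comparison asks whether these genes differ between the muscles of the Korean native pig and the Yorkshire. All 6 had lower mean signals in Korean native pigs, and 0 of the 6 passed a limma adjusted p of 0.05. Under quantile normalisation this direction was lost for MYLPF, TNNT3 and TNNI2, whose changes lay near 0. Over the whole array 0 of 14399 probe sets (0%) passed, with a smallest limma adjusted p of 0.281. Unadjusted, limma's p was under 0.05 for 0 of the 6 fast fibre genes, against 570 probe sets or 3.96% of all tested. In 0 of the 6 did the breeds separate without overlap, against 2.56% of all tested probe sets.

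MYH2 had the largest log2 change and the widest interval. Its signal averaged 53074 ± 27176 in Korean native pigs, against 74067 ± 34483 in Yorkshire pigs (SD, n = 4 each). The log2 change was -0.56 (SE 0.51, 95% interval -1.67 to 0.54; limma adjusted p = 0.999). Leaving out Korean native pig 3 gave -0.03, leaving out Yorkshire 3 gave -0.95 and leaving out Yorkshire 4 gave -0.31, so its size depended on the lowest and highest animals. Leaving out both arrays of the highest 3' to 5' ratios, Korean native pig 1 and Yorkshire 3, gave -1.19.

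TNNC2 averaged 65036 ± 14094 in Korean native pigs, against 89063 ± 29509 in Yorkshire pigs (SD, n = 4 each). Its log2 change was -0.42 (SE 0.25, 95% interval -0.96 to 0.12; limma adjusted p = 0.999). Without Yorkshire 4, the animal with the highest TNNC2 signal, it was -0.23.

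The remaining 4 genes lay closer together. The log2 change was -0.33 for MYL1 (95% interval -0.82 to 0.15), -0.32 for MYLPF (-0.80 to 0.17), -0.30 for TNNT3 (-0.77 to 0.16) and -0.26 for TNNI2 (-0.70 to 0.18), each at a limma adjusted p of 0.999. Changes in either direction within these intervals were not distinguishable from 0 with 4 arrays per breed. Leaving out Yorkshire 4 gave -0.13 for TNNT3, -0.11 for TNNI2 and -0.20 for MYLPF. Leaving out Korean native pig 4, the lowest animal for both light chains, gave -0.19 for MYL1 and -0.17 for MYLPF. With Korean native pig 1 and Yorkshire 3 both left out, TNNT3 was at -0.52 and TNNI2 at -0.42.

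**Figure D2:**
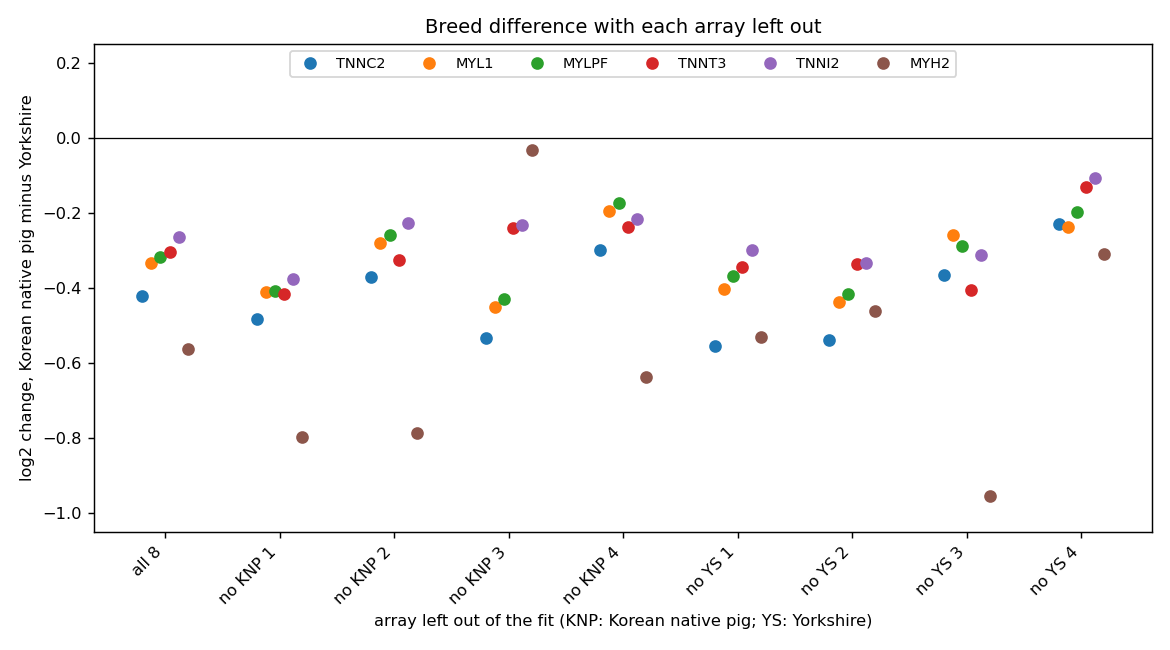
Log2 change of signal, Korean native pig minus Yorkshire, for the 6 genes with all 8 arrays and with each array left out in turn. MYH2 lies at -0.03 with Korean native pig 3 left out and at -0.95 with Yorkshire 3 left out, while the other 5 genes lie between -0.56 and -0.11 in every fit.

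The median of the 6 log2 changes was -0.33, against -0.0025 over the 5331 genes tested, 50.4% of which were below 0. Other bright probe sets are given beside these values. Of the 100 brightest probe sets other than these genes, 76 (76%) were below 0, with a median of -0.08. The median signal of those 100 was 38843 in Korean native pig 4 and 56504 in Yorkshire 4, the lowest and highest of the 8 arrays, and 42649 to 51060 in the other 6. With each array centred on the median of its 100 brightest other probe sets, a setting chosen after the data were seen, the change was -0.34 for TNNC2, -0.25 for MYL1, -0.24 for MYLPF, -0.22 for TNNT3, -0.18 for TNNI2 and -0.48 for MYH2. Quantile normalisation, which gives every array the same set of values, left MYL1 at -0.01, TNNC2 at -0.09 and MYH2 at -0.28, and put MYLPF at 0.01, TNNI2 at 0.02 and TNNT3 at 0.00078. The changes in MYLPF, TNNI2 and TNNT3 thus lay near 0 (SE 0.11, 0.15 and 0.17) and were not reversals. Quantile normalisation sets a value by its rank within the array. Probe sets near the top of every array therefore have little room to differ, whatever the breed difference. The median of the 6 after quantile normalisation was -0.0022.

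**Figure D3:**
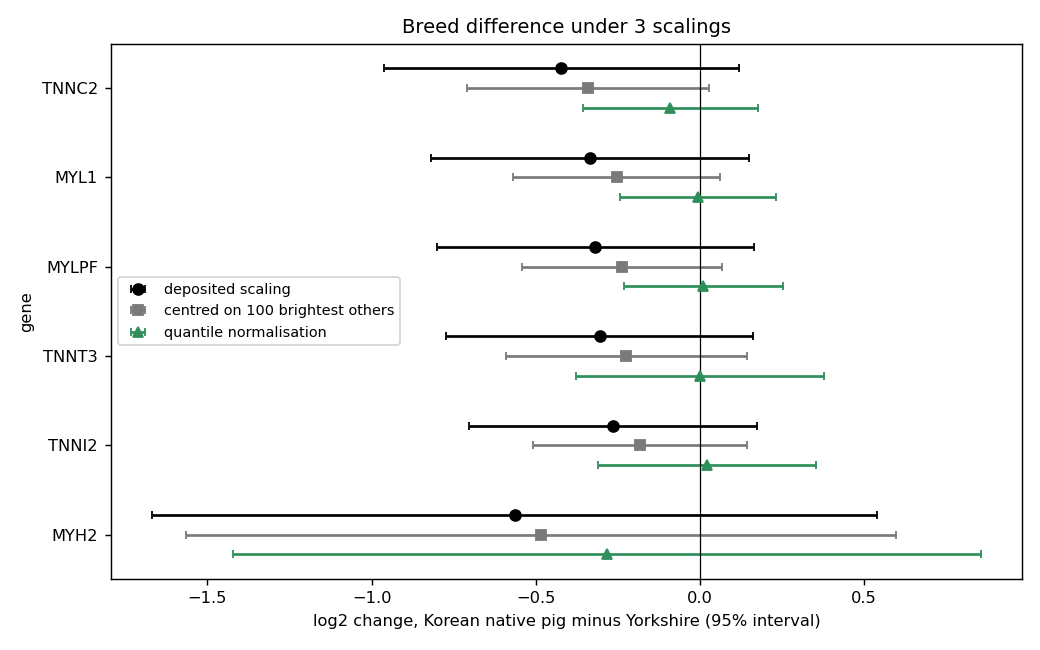
Log2 change with its 95% interval for each gene under the deposited scaling, with arrays centred on their 100 brightest other probe sets, and after quantile normalisation. Every interval includes 0, and after quantile normalisation MYL1, MYLPF, TNNT3 and TNNI2 lie between -0.01 and 0.02.

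Results also differed between arrays with bright and with dim hybridisation controls, 2 per breed in each. Within the bright arrays the change was -0.05 for TNNC2, -0.05 for MYL1, 0.02 for MYLPF, -0.02 for TNNT3, -0.01 for TNNI2 and -0.47 for MYH2. Within the dim arrays, which include Korean native pig 4 and Yorkshire 4, the same changes were -0.80, -0.61, -0.65, -0.59, -0.52 and -0.66. Their median was -0.04 on the bright arrays and -0.63 on the dim arrays, and the difference between these array sets was not tested.

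Covariation between the genes was then described over the 8 animals. Correlations were computed on log2(signal + 32) for all 15 pairs, with exact permutation over the 40320 orders of the arrays and Benjamini-Hochberg adjustment over the 15. By Pearson's r 4 pairs passed. MYL1 and MYLPF had r = 0.98 (exact permutation p = 2.48e-05, the smallest these orders can give, adjusted p = 0.000372; Spearman's rho = 1, p = 4.96e-05, adjusted p = 0.000744). TNNC2 had r = 0.95 with MYL1 and r = 0.95 with MYLPF (exact permutation p = 0.000446, adjusted p = 0.00223 for both). Spearman's rho was 0.98 for both TNNC2 pairs (exact permutation p = 0.000397, adjusted p = 0.00198). Leaving out Korean native pig 4 and Yorkshire 4, the 2 arrays farthest from the median, r was 0.97 for MYL1 with MYLPF, 0.98 for TNNC2 with MYL1 and 0.90 for TNNC2 with MYLPF.

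The other pair joined TNNT3 and TNNI2, with r = 0.94 (exact permutation p = 0.00149, adjusted p = 0.00558) and rho = 0.83 (p = 0.0154, adjusted p = 0.0461). Its r fell to 0.76 when Korean native pig 4 and Yorkshire 4 were left out. The genes lie near each other in the Sscrofa11.1 gene table, with 2 protein-coding genes between them. TNNI2 with MYLPF had r = 0.77 (exact permutation p = 0.0262, adjusted p = 0.0655; rho = 0.74, p = 0.0458, adjusted p = 0.0982), and without the same arrays 0.42. TNNI2 with TNNC2 had r = 0.78 (exact permutation p = 0.0234, adjusted p = 0.0655; rho = 0.69, p = 0.0694, adjusted p = 0.130), and 0.21 without them, so neither relation passed after adjustment on these values, and both r fell without those 2 arrays.

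MYH2 was closest to TNNT3 among the 5 other genes. With TNNT3 it had r = 0.73 (exact permutation p = 0.0496, adjusted p = 0.106) and rho = 0.88 (p = 0.00724, adjusted p = 0.0272), and r was 0.89 with Korean native pig 4 and Yorkshire 4 left out. With MYL1 it had r = -0.16 (exact permutation p = 0.716, adjusted p = 0.826; rho = 0.05, p = 0.935, adjusted p = 0.935), with MYLPF r = -0.06 (p = 0.896, adjusted p = 0.959; rho = 0.05, p = 0.935) and with TNNC2 r = -0.0051 (p = 0.991, adjusted p = 0.991; rho = 0.12, p = 0.793). Without Korean native pig 4 and Yorkshire 4 these were -0.69, -0.65 and -0.70. The median r over the 15 pairs was 0.68, against 0.0065 over all pairs of tested probe sets and 0.48 over pairs of the 100 brightest other probe sets, as a description.

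All arrays share a per-array scaling, and the correlations moved with it in different ways. With arrays centred on their 100 brightest other probe sets, r was 0.95 for MYL1 with MYLPF, 0.88 and 0.90 for TNNC2 with MYL1 and with MYLPF, 0.91 for TNNT3 with TNNI2, and 0.91 for TNNT3 with MYH2. After quantile normalisation MYL1 with MYLPF was at 0.74 (exact permutation adjusted p = 0.140). TNNC2 was then at -0.45 with MYL1 and -0.51 with MYLPF (exact permutation adjusted p = 0.663 and 0.604). These negative values were not distinguishable from 0. This scaling sets a value by its rank within the array, and MYL1 and MYLPF ranked no lower than 11 on any array, which leaves them little spread. TNNT3 was at 0.89 with TNNI2 and 0.97 with MYH2 after quantile normalisation. Arrays of bright and of dim hybridisation controls number 4 each, too few for an r within each. Taken as deviations from the means of these array sets, r was 0.98 for MYL1 with MYLPF, 0.99 for TNNC2 with MYL1, 0.98 for TNNC2 with MYLPF, 0.97 for TNNT3 with TNNI2 and 0.75 for TNNT3 with MYH2. As deviations from the breed means these were 0.98, 0.93, 0.94, 0.92 and 0.69. As deviations from the bright and dim array means 5 pairs passed, the added one being TNNI2 with MYLPF at r = 0.84 (permutation p = 0.0147, adjusted p = 0.0442). TNNT3 with MYH2 did not pass (permutation p = 0.0326, adjusted p = 0.0544). Such deviations cannot be swapped freely between the array sets, so these p-values are approximate and may be too small. TNNT3 with MYH2 passed with arrays centred on their 100 brightest other probe sets (exact permutation p = 0.000223, adjusted p = 0.00335). It also passed after quantile normalisation (exact permutation p = 0.00516, adjusted p = 0.0387). TNNI2 with MYLPF passed under neither, at r = 0.34 and 0.13.

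**Figure D4:**
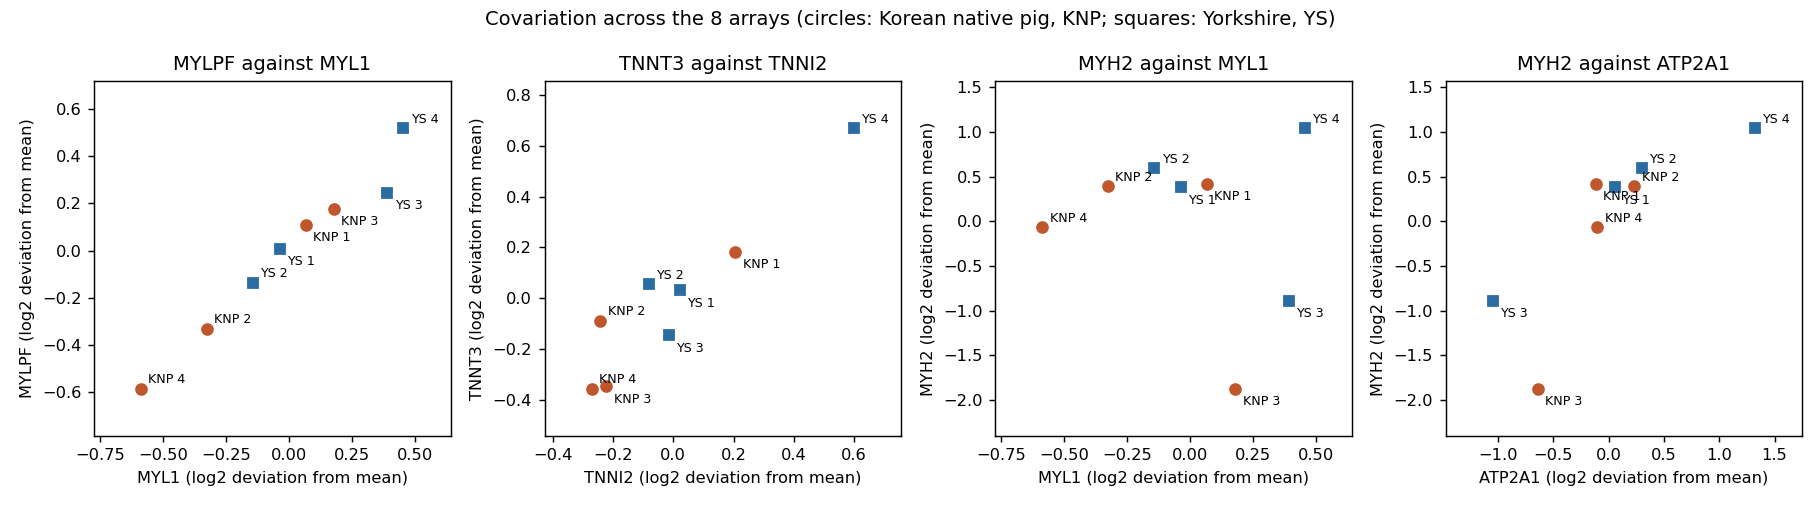
Deviation of each array from the gene's mean log2(signal + 32) for 4 pairs of genes, Korean native pigs as circles and Yorkshire pigs as squares. MYLPF follows MYL1 along 1 line (r = 0.98), TNNT3 follows TNNI2 (r = 0.94), replicate 3 of both breeds lies low in MYH2 and not in MYL1, and both animals are also low in ATP2A1 (r = 0.81 with MYH2).

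Set against genes outside the group, the light chains and TNNC2 correlated with the array's other bright probe sets. The 24 relations, of the 6 genes with the 100 brightest other probe sets, MYH7, MYL2 and ATP2A1, were chosen after the values were seen. MYLPF had r = 0.95 with the median of the 100 brightest (exact permutation p = 0.000893, adjusted over the 24 p = 0.0167; rho = 0.90, p = 0.00456, adjusted p = 0.0219). MYL1 had r = 0.90 (p = 0.00303 by exact permutation, adjusted p = 0.0223) and TNNC2 0.88 (p = 0.00464, adjusted p = 0.0223), with rho of 0.90 (p = 0.00456, adjusted p = 0.0219) and 0.86 (p = 0.0107, adjusted p = 0.0321). With Korean native pig 4 and Yorkshire 4 left out, r was 0.82 for MYLPF, 0.71 for MYL1 and 0.59 for TNNC2. TNNI2 had r = 0.76 with the same median (exact permutation p = 0.0272, adjusted p = 0.0598; rho = 0.69, adjusted p = 0.151). TNNT3 had r = 0.64 (exact permutation p = 0.0870, adjusted p = 0.161; rho = 0.43, adjusted p = 0.479). Neither passed, and without Korean native pig 4 and Yorkshire 4 these r were 0.31 and -0.30. MYH2 had r = -0.03 with the same median (exact permutation p = 0.928, adjusted p = 0.969; rho = 0.07, p = 0.882, adjusted p = 0.882). As deviations from the bright and dim array means r was 0.94 for MYLPF, 0.88 for MYL1, 0.89 for TNNC2, 0.83 for TNNI2, 0.81 for TNNT3 and 0.24 for MYH2.

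MYH7, the slow heavy chain, had r = 0.92 with MYL1 (exact permutation p = 0.00139, adjusted p = 0.0167; rho = 0.93, p = 0.00223, adjusted p = 0.0219). Leaving out Korean native pig 4 and Yorkshire 3 gave 0.87, and as deviations from the bright and dim array means 0.93. With MYH2 it had r = -0.40 (exact permutation p = 0.335, adjusted p = 0.472; rho = -0.26, p = 0.536, adjusted p = 0.757), or -0.36 without those 2 arrays and -0.06 as such deviations. Of the 24 relations 9 passed by Pearson's r after adjustment.

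Replicate 3 of both breeds combined low MYH2 with high slow fibre signals. MYH7 had 84681, 50180, 89304 and 46973 in Korean native pigs, against 65109, 61351, 113708 and 84943 in Yorkshire pigs. Replicate 3 was the brightest of its breed for MYH7 and for MYL2, the slow regulatory light chain, at 90574 in the Korean native pig and 99018 in the Yorkshire. Relative to each gene's mean over the 8 arrays, MYH2 minus MYH7 was -2.19 log2 units in Korean native pig 3 and -1.56 in Yorkshire 3, against 0.18 to 0.90 in the other 6 animals. MYH2 minus MYL1, a fast light chain, was likewise -2.05 and -1.28 there, against 0.35 to 0.74 in the other 6. The low MYH2 signal thus stood out against a fast gene as well as a slow one. MYL1, MYLPF and TNNC2 were each highest among Korean native pigs in replicate 3. The summed signal of the 6 slow fibre markers was 183904 to 359355 in Korean native pigs, against 248739 to 427740 in Yorkshire pigs, and the top of both ranges was replicate 3. Korean native pig 1 had a nearly equal sum of 349559, yet its MYH2 signal of 73339 was the highest of its breed. That array and Yorkshire 3 are those of high 3' to 5' ratio, at 3.37 and 3.07. These animals were singled out after their values were seen, and the part of fibre composition in the low MYH2 signal was not tested.

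ATP2A1, the calcium pump of fast fibre sarcoplasmic reticulum, was low in the same animals. Its brighter probe set had 17092, 21825, 11884 and 17284 in Korean native pigs, against 19285, 22866, 8975 and 46554 in Yorkshire pigs. Replicate 3 was the lowest of its breed and Yorkshire 4 the highest animal, as in MYH2. The correlation of MYH2 with ATP2A1 was r = 0.81 (exact permutation p = 0.0141, adjusted p = 0.0389) and rho = 0.83 (p = 0.0154, adjusted p = 0.0369). It was 0.92 without Yorkshire 3 and Yorkshire 4, and 0.72 as deviations from the bright and dim array means. A dimmer ATP2A1 probe set disagreed in part, with 588 in Korean native pig 1 and 594 in Yorkshire 3 as its lowest signals, the animals with the highest 3' to 5' ratios.

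**Figure D5:**
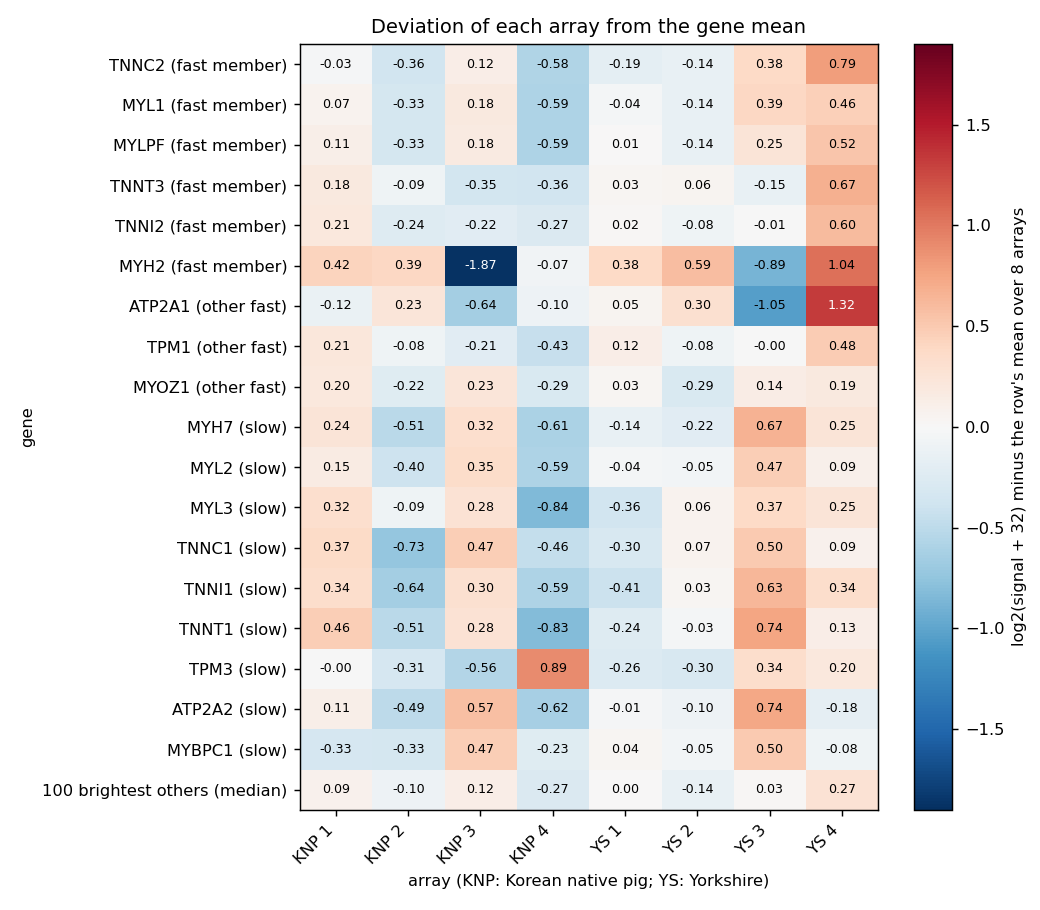
Log2(signal + 32) of each array minus the gene's mean over the 8 arrays, for the 6 fast fibre genes, 3 other fast fibre genes, 9 slow fibre genes and the median of the 100 brightest other probe sets. Korean native pig 4 is below the mean in every fast fibre row. MYH2 and ATP2A1 are below it in replicate 3 of both breeds, where most slow fibre genes and TNNC2, MYL1 and MYLPF are above it.

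Other genes of the fast programme were few on the array. Of 10 listed, 3 were tested and all 3 were below 0 in the breed comparison, with 0 passing. After quantile normalisation 2 of the 3 were above 0, and with arrays centred on their 100 brightest other probe sets 1 of the 3. They were ATP2A1 at -0.32 (95% interval -1.18 to 0.55), TPM1, a tropomyosin, at -0.26 (-0.69 to 0.17), and MYOZ1, a Z-disc protein that binds calcineurin, at -0.04. With single arrays left out ATP2A1 was at -0.72 for Yorkshire 3, -0.15 for Korean native pig 3 and 0.07 for Yorkshire 4, and TPM1 was at -0.14 for Yorkshire 4 and -0.16 for Korean native pig 4. On the bright arrays ATP2A1 was at 0.11 and TPM1 at -0.06, and on the dim arrays they were at -0.75 and -0.46. Of the slow fibre list 9 of 12 genes were tested, 8 below 0 and 1 above, with 0 passing and a median of -0.22. MYH7 was at -0.28, and at -0.029 after quantile normalisation. With single arrays left out it was -0.10 for Yorkshire 3, -0.12 for Korean native pig 4, -0.15 for Korean native pig 2 and -0.43 for Korean native pig 3. MYL2 was at -0.24, and near 0 at 0.010 after quantile normalisation. The same omissions gave -0.12, -0.09, -0.15 and -0.40 for MYL2. With single arrays left out the slow median was -0.07 for Yorkshire 3, -0.09 for Korean native pig 4, -0.13 for Korean native pig 2 and -0.40 for Korean native pig 3. On the bright arrays 6 of the 9 slow genes lay above 0 (median 0.03), and on the dim arrays 1 of the 9 did (median -0.57). The difference between fast and slow genes was not tested.

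Of 14 genes shared by all fibres 10 were tested, 8 below 0 and 2 above, or 7 and 3 after quantile normalisation, with 0 passing. CKM, the muscle creatine kinase, was at -0.33 (95% interval -0.82 to 0.16), or -0.19 without Korean native pig 4. It was near 0 at 0.0031 after quantile normalisation. TPM2, a tropomyosin, was at -0.28 (-0.69 to 0.14), or -0.16 without Yorkshire 4, -0.45 with Korean native pig 1 and Yorkshire 3 both left out, and -0.026 after quantile normalisation. On the bright arrays CKM was at -0.0028 and TPM2 at 0.025, and on the dim arrays they were at -0.66 and -0.58. Of the developmental myosin and troponin genes only MYL4, the embryonic light chain, was tested, at 0.10 (-0.48 to 0.69), with -0.11 when Yorkshire 3 was left out, 0.04 when Korean native pig 1 was, 0.18 when Yorkshire 2 was and 0.24 when Yorkshire 4 was. It was at 0.47 on the bright arrays and -0.26 on the dim arrays. TNNT2, the cardiac and embryonic troponin T, averaged a signal of 46.7 ± 36.1 in Korean native pigs, against 69.0 ± 55.7 in Yorkshire pigs (SD, n = 4 each), below the negative control limit of 91.5.

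Of 15 regulators of fibre type 6 were tested, 4 below 0 and 2 above, with 0 passing. This tally depended on single animals: it was 1 below and 5 above when Korean native pig 4 was left out, and 2 below and 4 above when Yorkshire 3 was. On the bright arrays it was 1 below and 5 above, and on the dim arrays 5 below and 1 above. PPARGC1A, a coactivator that promotes the oxidative fibre programme in mice, was at -0.96 (95% interval -1.85 to -0.06; limma adjusted p = 0.999), or -0.49 without Yorkshire 3. That array has a log2 ratio of 3' to 5' signal of 3.07, and with Korean native pig 1, the other array of high ratio, also left out PPARGC1A was at -0.38. It was at -1.47 on the bright arrays and -0.44 on the dim arrays. Its signals were 510.2, 745.1, 685.4 and 694.1 in Korean native pigs, against 818.0, 1428.2, 3477.5 and 683.1 in Yorkshire pigs. The highest was Yorkshire 3, and the other 7 animals lay between 510.2 and 1428.2. MEF2D, a transcription factor active in slow fibres of mice, was at 0.26 (-0.20 to 0.72), with 0.17 when Korean native pig 1 was left out and 0.41 when Yorkshire 2 was, and its direction turned between the bright arrays (0.56) and the dim arrays (-0.04).

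The genes most like the mean fast fibre profile were found among 5325 other genes. Pearson's r over the 8 arrays was taken with the mean of the 6 centred profiles. The closest were LDHA (0.96), the muscle lactate dehydrogenase subunit, BIN1 (0.96), a membrane-shaping protein of the T-tubules, and TPM1 (0.96). AGPAT2 (0.94), an acyltransferase of phospholipid and triglyceride synthesis, and SLC25A1 (0.94), the mitochondrial citrate carrier, followed. LDHA signals were 77296, 62728, 51661 and 51777 in Korean native pigs, against 76000, 74465, 72235 and 98983 in Yorkshire pigs, so Yorkshire 4 was again the highest. Farthest were RDH14 (-0.94), CST6 (-0.94) and SELENOP (-0.94), and in each of these Yorkshire 4 had the lowest signal, at 330.1, 98.8 and 4448. Among the 9 slow fibre genes the same r ran from -0.15 to 0.48, the highest being MYL3, with MYH7 at 0.40. Of the 9, 0 were among the 100 genes most like this mean profile. Those 100 are a small share of the 5325, so a count of 0 among 9 genes says little. The profiles were not scaled to equal spread, so MYH2, with the widest spread, counted for most in the mean. In Korean native pig 3 the mean was -0.33, with MYH2 at -1.87, TNNT3 at -0.35 and TNNI2 at -0.22. TNNC2, MYL1 and MYLPF were at 0.12, 0.18 and 0.18 there. Taken singly, MYH7 had r = 0.92 with MYL1, 0.87 with MYLPF and 0.81 with TNNC2. With TNNI2, TNNT3 and MYH2 it had r of 0.47, 0.24 and -0.40.

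Markers of other cell types were read in the same arrays. Of the fibroblast markers 4 of 4 tested were below 0, with summed signals of 7764 to 12670 in Korean native pigs, against 9964 to 16440 in Yorkshire pigs. Adipocyte markers were below 0 in 3 of 4, with sums of 3615 to 9633 in Korean native pigs, against 4289 to 7866 in Yorkshire pigs. Of the endothelial markers 2 of 5 were below 0, with sums of 3779 to 4654 in Korean native pigs, against 3949 to 5792 in Yorkshire pigs, and KDR was at background. Macrophage markers were above 0 in 2 of 2, with sums of 336 to 2112 in Korean native pigs, against 504 to 1176 in Yorkshire pigs, the highest being Korean native pig 4. Satellite cell sums were 276 to 359 in Korean native pigs, against 239 to 345 in Yorkshire pigs, and red cell sums 928 to 1209 in Korean native pigs, against 984 to 1163 in Yorkshire pigs. Of the tested markers in these lists 0 passed a limma adjusted p of 0.05, and 50.4% of all tested genes were below 0. A sum follows the brightest markers of its list, so counts and sums need not describe the same genes. The part of these cell types in the fast fibre results was not tested.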

How the data were processed

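The table held 1 linear intensity value per probe set and array, as deposited. The submitters' processing notes name GCOS 1.3. The sources used here do not give its summarisation method or scaling target. The authors' intensity values had a mean, trimmed by 2% at each end, of 500.1 to 500.2 on each array, so a change is relative to the rest of its array, and no detection or saturation flags were used. There were 0 other value columns, 0 pairs of arrays with identical values, and a highest r between arrays of 0.942.

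Values were transformed to log2(signal + 32), which understates changes at low signal. Controls (124 probe sets) and the dimmest 40% of the rest by mean log2 level, below a signal of 98.6, were left out, leaving 14399. All 6 fast fibre probe sets passed. limma 3.58.1 in R 4.3.3 (lmFit, eBayes with an intensity trend) compared Korean native pigs with Yorkshire pigs on 8 arrays without covariates, with Benjamini-Hochberg adjustment over all tested probe sets. The fit was tested on simulated data with changes far larger than those of the 6 genes and without shared array effects. That test therefore does not show how the fit does at the sizes seen here. Permutation tests are two-sided and used Python 3.11.15 with numpy 2.4.6. Nothing in the labels beyond the words biological replicate says how the animals were chosen. The number of arrays limits the precision, with a median SE of 0.283 log2 units.

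Symbols came from GEO's platform annotation. A gene stands for its brightest probe set. The genes and lists were chosen with earlier results of these data known. Of each list of fast, slow, developmental, shared and regulator genes the 2 of smallest p are named, and the 5 most and 3 least alike genes by r. Cell type marker lists are given by counts and sums. Genes named beyond this rule (MYOZ1, TNNT2, KDR, MYL3) were picked after their values were seen.

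Replicate numbers recur in both breeds. Other scalings, pseudocounts, filters, blocks and left-out arrays were tried. No probe or promoter sequence was used.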

Additional observations from a re-analysis of the deposited data

Results flagged for a closer look

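In 12 sets of 4 values, 6 genes in 2 breeds, 1 animal stood far from the other 3 of its breed in 2 sets, where chance marks about 1 set in 20. Both were TNNI2. Yorkshire 4 had a signal of 95944, above 59877 to 64264 in the other Yorkshire pigs, and the gap was 0.850 of the breed's log2 range. Korean native pig 1 had 73055, above 52501 to 54297 in the other Korean native pigs, with a gap of 0.898 of the range. Without Korean native pig 1 the log2 change of TNNI2 was -0.38, and without Yorkshire 4 it was -0.11.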

How the results depend on the processing

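With 3 other pseudocounts, 2 other filters, median centring, no intensity trend and a hybridisation control block, 0 probe sets passed and all 6 genes stayed below 0. Quantile normalisation gave a median of -0.0022 and positive values for MYLPF (0.010), TNNT3 (0.00078) and TNNI2 (0.022), and MYLPF was at 0.017 within the bright arrays. The median was -0.63 within the dim arrays, -0.43 when Korean native pig 1 and Yorkshire 3 were left out together, and -0.43 to -0.21 with single arrays left out. After quantile normalisation 2 of the 15 correlations passed in place of 4. There r was -0.45 for TNNC2 with MYL1 and -0.51 for TNNC2 with MYLPF, and neither passed (exact permutation adjusted p = 0.663 and 0.604). The cause was not tested. With the replicate number as a block 1 probe set passed, not of a fast fibre gene, and MYH2 had an SE of 0.23 in place of 0.51 (limma unadjusted p = 0.0340, adjusted p = 0.992). As deviations from the breed means over all tested probe sets, same-numbered arrays correlated at -0.04 to 0.31. By this measure 4 of 8 matched their own number best, and hybridisation control brightness followed the number in both breeds. This does not settle whether the numbers mark pairs or batches, and the main fit did not treat them as either. A mean over the probe sets of a gene was not run, since each fast fibre gene has 1.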
